A study of Mus musculus with 4 samples.

Results

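The genes described here encode the transcription factors that drive epithelial-mesenchymal transition (EMT) and a pair of markers of the mesenchymal state. They were chosen by name, without a cut on their measured values but with earlier results of these data known. The genes are Snai1, Snai2, Snai3, Twist1, Twist2, Zeb1, Zeb2, Prrx1, Vim and Acta2. Each gene was read from the probe set that the platform annotation assigns to that gene alone, and where several did so, the probe set with the highest mean over the 4 arrays stands for it. Of the 10 genes, 9 had such a probe set, out of 22180 genes with a value in all. Zeb2 had 2 probe sets, each annotated to a further gene as well, and is given no value. Expression was measured in EO771 cells, a mouse mammary carcinoma cell line, on 4 arrays. A-FABP, the fatty acid carrier of adipocytes encoded by Fabp4, was added as recombinant mouse protein at 100 ng/ml to 1 group and PBS to the other, after 24 hours of culture to at least 70% confluence. Each group has 2 arrays, which the titles call biological replicates. No genetic change is named for either group, and how long the cells were exposed was not stated in the material used here. The controls are identified by their titles and source names, since their description names A-FABP as well.

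EMT is the programme by which epithelial cells lose their junctions and polarity and gain motility, used in the embryo by neural crest and mesoderm and by carcinoma cells during invasion. Its core factors belong to the Snail zinc finger family, the Twist basic helix-loop-helix family and the Zeb zinc finger homeobox family. Snail and Zeb proteins repress epithelial genes such as Cdh1 through E-box sequences in their promoters, and the microRNAs of the miR-200 family in turn repress Zeb transcripts. Vimentin, the intermediate filament protein encoded by Vim, and smooth muscle alpha-actin, encoded by Acta2, are read as products of the mesenchymal or myofibroblast state.

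Among the EMT factors, Snai2 and Twist2 had the largest differences, both higher with A-FABP, by 0.41 ± 0.18 (SE) and 0.35 ± 0.15 on the log2 scale, or 1.33-fold and 1.28-fold. In neither gene was the difference larger than the spread between replicates, because the A-FABP arrays differed from each other by 0.43 and 0.37. Snai1, Twist1, Zeb1, Vim and Acta2 differed by -0.05 to 0.04, with 95% confidence intervals that together ran from -0.29 to 0.25. No gene of the 9 passed: limma adjusted p-values, adjusted by Benjamini-Hochberg over all 41345 probe sets, ran from 0.375 to 0.931. Over all probe sets 0 passed the adjusted threshold of 0.05 (0%). At an unadjusted p under 0.05 there were 0 of the 9 genes, against 13% of all 22180 genes (4.81% higher and 8.24% lower). The arrays of the groups did not overlap in 7 of the 9 genes, 4 higher and 3 lower with A-FABP, against 53.5% of all genes (26% higher and 27.5% lower). In 7 of the 9 genes a gap between replicates was larger than the difference between groups, the exceptions being Zeb1 and Prrx1. With groups of this size the smallest two-sided p that exact permutation allows for a gene is 0.333. The median difference of the 9 genes was -0.02, against -0.01 over all genes. Of the 9 differences 5 lay below 0, as did 52.4% of those of all genes. The accounts of single genes that follow therefore describe levels, not changes.

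**Figure D1:**
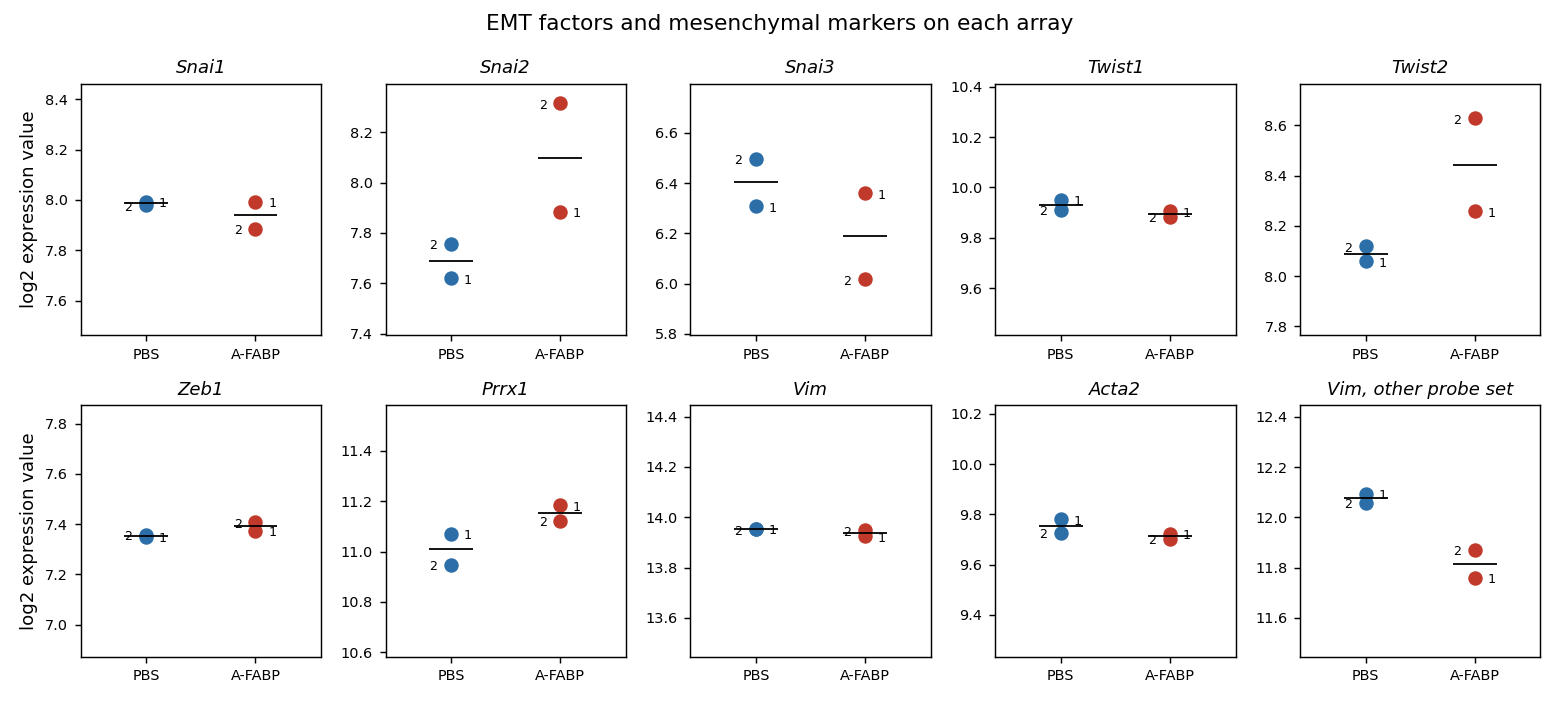
Log2 expression value of each gene on the 4 arrays (points, numbered by replicate) with group means (lines), every panel spanning the same range of 1 on the log2 scale. A-FABP replicate 2 stands apart from replicate 1 in Snai2, Twist2 and Snai3, while the groups of Snai1, Twist1, Zeb1, Vim and Acta2 lie within 0.05 of each other in their means.

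The 4 arrays had median log2 values of 5.95 to 6.03 and highest values from 14.09. As a check of the cell type, the mammary epithelial marker Krt8 lay at 8.74 to 8.85 on the 4 arrays, Cdh1 at 6.20 to 6.39 and Epcam at 4.45 to 5.05. Of the other epithelial markers listed, mean levels ran from 4.92 (Elf5) to 6.53 (Elf3), with Krt18 and Krt19 at 6.01 and Cldn7 at 5.31. Detection was not called, so whether Epcam is absent was not settled. The means of the 11 fibroblast markers ran from 4.58 (Lum) to 11.2 (Pdgfra), and those of the leukocyte markers from 4.22 (Ptprc) to 12.8 (Cd68). Signals of different probe sets are not on a common scale, so no order is read from them.

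Within the Snail family, whose proteins bind E-boxes through zinc fingers, 3 genes were measured, and none passed. Snai1, the factor of early EMT that represses Cdh1, lay at 7.99 and 7.88 with A-FABP and at 7.99 and 7.98 with PBS. The groups overlapped, and replicate 1 of each group had nearly the same value. The group means were 7.94 ± 0.08 (SD, n = 2) and 7.99 ± 0.01 (SD, n = 2), a difference of -0.05 (95% CI -0.29 to 0.19, limma adjusted p = 0.816). Snai2, which encodes Slug, a factor of mammary basal and stem cells as well as of EMT, lay at 7.88 and 8.32 with A-FABP and at 7.62 and 7.76 with PBS. Both A-FABP arrays were above both controls, and replicate 2 was the higher array in each group. The means were 8.10 ± 0.31 (SD, n = 2) and 7.69 ± 0.10 (SD, n = 2), and the interval of the difference ran from -0.09 to 0.91 (limma adjusted p = 0.375). The Snai2 difference was 0.63 without A-FABP replicate 1 and 0.20 without A-FABP replicate 2. Snai3, the least studied member of the family, lay at 6.36 and 6.02 with A-FABP and at 6.31 and 6.50 with PBS. Its groups overlapped, and A-FABP replicate 2 was the lowest array. The Snai3 difference was -0.22 (95% CI -0.66 to 0.23, limma adjusted p = 0.550), and it was -0.39 without A-FABP replicate 1, -0.31 without PBS control replicate 1, -0.12 without PBS control replicate 2 and -0.04 without A-FABP replicate 2.

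Snail factors are known to bind the E-box CACCTG and its reverse complement CAGGTG, and Snail is known to act on the promoter of its own gene. The 250 bases before the start of Snai1 (RefSeq, GRCm38.p6, chr2:167537945-167538194, plus strand) are shown for that reason, 5′ to 3′, with every match to CANNTG in capitals. CANNTG is the general E-box, reads the same on both strands in its fixed letters and includes CACCTG and CAGGTG.
Snai1: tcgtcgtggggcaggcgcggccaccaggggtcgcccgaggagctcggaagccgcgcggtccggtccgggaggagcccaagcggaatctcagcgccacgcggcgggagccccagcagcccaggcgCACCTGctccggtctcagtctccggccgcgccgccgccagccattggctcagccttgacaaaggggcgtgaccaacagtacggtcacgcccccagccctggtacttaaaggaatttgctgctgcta
A match to CACCTG began 126 bases before the start and was the only CANNTG in the window. Promoters were in the table for 7 of the 10 genes, and Snai1 alone of these held CACCTG or CAGGTG in this window, as did 17.2% of 32851 mouse promoters. A match is a description of the sequence and not a binding site.

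Twist1 and Twist2 are paralogous basic helix-loop-helix factors of mesoderm. Twist1 lay at 9.90 and 9.88 with A-FABP and at 9.95 and 9.91 with PBS, at means of 9.89 ± 0.01 (SD, n = 2) and 9.93 ± 0.03 (SD, n = 2). All 4 arrays fell within 0.07 of each other, with the A-FABP arrays just below the controls (difference -0.04, 95% CI -0.25 to 0.18, limma adjusted p = 0.844). Twist2, also known as Dermo1 for its expression in dermis, lay at 8.26 and 8.63 with A-FABP and at 8.06 and 8.12 with PBS. Its A-FABP arrays were both above the controls, and again replicate 2 was the higher of them. The means were 8.44 ± 0.26 (SD, n = 2) and 8.09 ± 0.04 (SD, n = 2), with an interval of the difference from -0.08 to 0.78 (limma adjusted p = 0.375). Without A-FABP replicate 1 the Twist2 difference was 0.54, and without A-FABP replicate 2 it was 0.17. Whether Twist2 and Twist1 differed in response was not tested.

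The windows before the starts of these paralogs (RefSeq, GRCm38.p6, 250 bases, Twist1 at chr12:33957421-33957670 and Twist2 at chr1:91801211-91801460, plus strand) are shown to set the start regions of the family side by side. Matches to CANNTG would stand in capitals.
Twist1: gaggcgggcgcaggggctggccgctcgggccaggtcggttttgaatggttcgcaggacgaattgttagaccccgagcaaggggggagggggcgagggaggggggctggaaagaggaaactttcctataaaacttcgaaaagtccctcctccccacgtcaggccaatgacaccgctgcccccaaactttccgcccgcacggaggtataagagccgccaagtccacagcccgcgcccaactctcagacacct
Twist2: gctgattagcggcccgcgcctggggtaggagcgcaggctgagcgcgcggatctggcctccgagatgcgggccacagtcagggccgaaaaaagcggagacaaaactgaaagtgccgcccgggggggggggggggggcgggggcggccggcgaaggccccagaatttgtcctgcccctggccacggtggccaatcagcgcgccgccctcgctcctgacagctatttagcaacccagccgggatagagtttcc
Neither window held CANNTG, which 66.2% of all promoters did. The absence of a match says only that these letters are not in this window.

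Over the 4 arrays, Snai2 and Twist2 had much the same pattern. After each gene was centred on its own mean, the root mean square difference between them was 0.05 on the log2 scale, and 35 other genes were closer to Twist2 than Snai2 was. The 3 closest were Olfr1280, an olfactory receptor gene (0.017), Cylc2, which encodes a protein of the sperm head (0.021), and Gm13544, a predicted gene (0.022). Olfr1280 lay at 2.14 to 2.70 on the 4 arrays and Cylc2 at 3.33 to 3.86, below the lower quartile of each array (4.80 to 4.87). In all, 522 genes came within 0.1 of Twist2, so 4 arrays hardly single out a gene. Genes with a mean level of 7 to 9, where Snai2 and Twist2 lie, had a median difference of 0.09, and those of 6 to 7, where Snai3 lies, had a median of -0.10.

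**Figure D2:**
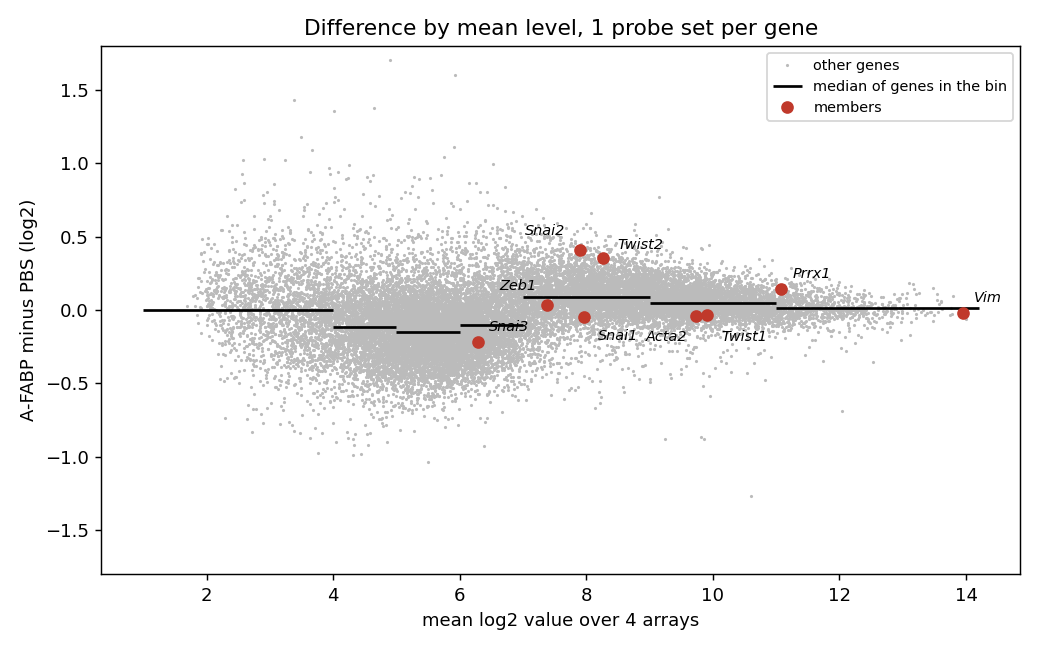
Difference between A-FABP and PBS (log2) against the mean log2 value over 4 arrays for all 22180 genes (grey), with the median of each level bin (black lines) and the 9 genes (red). Snai2 and Twist2 lie above the bin median of 0.09, and Snai3 lies below the bin median of -0.10.

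Zeb1, the zinc finger repressor held in check by miR-200, lay at 7.37 and 7.41 with A-FABP and at 7.35 and 7.36 with PBS. Its A-FABP arrays lay just above the controls, at means of 7.39 ± 0.02 (SD, n = 2) and 7.35 ± 0.004 (SD, n = 2). The difference was 0.04 (95% CI -0.18 to 0.25, limma adjusted p = 0.840), and it was -0.016 after repeated quantile normalization. Prrx1, a homeobox factor of limb and craniofacial mesenchyme that is also an EMT inducer, lay at 11.18 and 11.12 with A-FABP and at 11.07 and 10.95 with PBS. The groups did not overlap, with PBS replicate 2 the lowest array. Prrx1 had means of 11.15 ± 0.04 (SD, n = 2) and 11.01 ± 0.09 (SD, n = 2), a difference of 0.14 (95% CI -0.11 to 0.40, limma adjusted p = 0.496). Without PBS control replicate 2 the Prrx1 difference was 0.08. Fibroblast markers, read beside Prrx1 and Vim, had a median difference of 0.01 over 11 genes. Their summed level was 11.91 on both A-FABP arrays and 11.92 and 11.85 on the controls, as log2 of the summed linear values. Bright probe sets, above all Pdgfra (11.2), weigh most in such a sum. Of the single differences, 6 lay above 0 and 5 below, from -0.40 (Thy1) to 0.23 (Dcn). Of the 11, 1 was lower at an unadjusted p under 0.05, against 8.24% of all genes. Their part in these values was not tested.

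**Figure D3:**
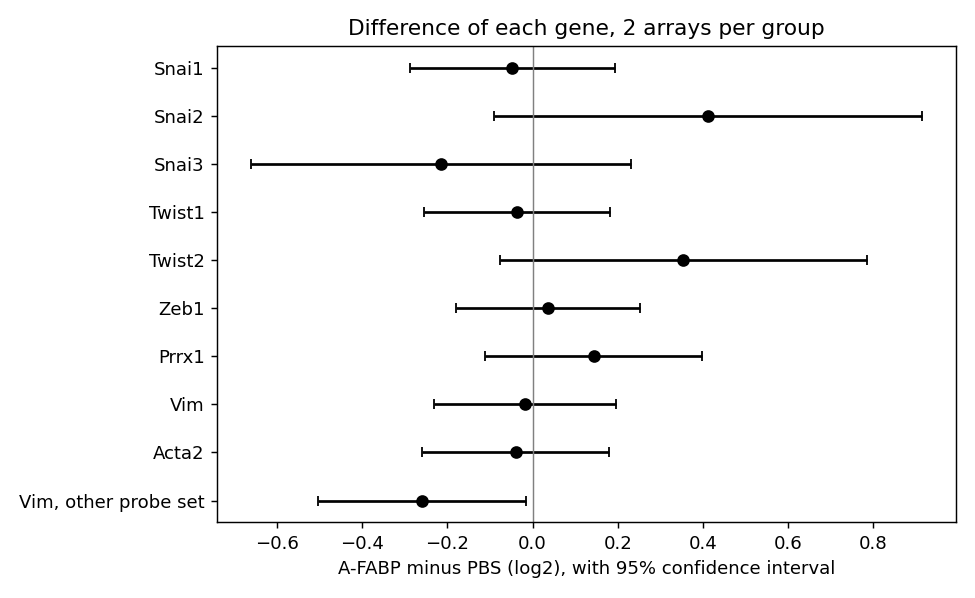
Difference between A-FABP and PBS (log2) for each gene with its 95% confidence interval from limma, 2 arrays per group, including the other Vim probe set. All 9 intervals of the genes as represented include 0, and that of the other Vim probe set runs from -0.50 to -0.02.

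Vim was read by 2 probe sets that did not give the same difference. The brighter, which stands for the gene, lay at 13.92 and 13.95 with A-FABP and at 13.95 on both controls, close to the highest values on the arrays (from 14.09). Its means were 13.94 ± 0.02 (SD, n = 2) and 13.95 ± 0.001 (SD, n = 2), and the difference was -0.02 (95% CI -0.23 to 0.20, limma adjusted p = 0.931). The other Vim probe set lay at 11.76 and 11.87 with A-FABP and at 12.09 and 12.06 with PBS. There the A-FABP arrays were both below the controls, by more than the gap between replicates. Its means were 11.82 ± 0.08 (SD, n = 2) and 12.08 ± 0.03 (SD, n = 2), 1.20-fold lower, a difference of -0.26 (95% CI -0.50 to -0.02). The unadjusted p of limma was 0.0415 and the adjusted p 0.318, so it did not pass. Which transcripts or exons each probe set reads was not known here. The difference of the brighter probe set was 0.048 after median centring (all genes 0.05), 0.028 after cyclic loess and 0.013 with the trend on mean level removed, and the value was 0 after repeated quantile normalization.

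Acta2, the actin of smooth muscle and myofibroblasts, lay at 9.72 and 9.70 with A-FABP and at 9.78 and 9.73 with PBS. The A-FABP arrays were just below the controls, at means of 9.71 ± 0.01 (SD, n = 2) and 9.75 ± 0.04 (SD, n = 2). The difference was -0.04 (95% CI -0.26 to 0.18, limma adjusted p = 0.832). After median centring, which adds the same amount to every gene and took the median of all genes from -0.01 to 0.05, it was 0.025. Smooth muscle and pericyte markers lay below 0 in 8 of 8 genes, with a median of -0.22. Leukocyte markers did so in 6 of 8 (median -0.24) and mammary epithelial markers in 7 of 8 (median -0.13), against 52.4% of all genes. The smooth muscle markers had mean levels of 4.67 to 6.76, where the medians of all genes were -0.11 (4 to 5), -0.15 (5 to 6) and -0.10 (6 to 7). All leukocyte markers but Cd68 (12.8) and all epithelial markers but Krt8 (8.79) also had mean levels between 4 and 7. The log2 summed level of the smooth muscle markers was 9.11 and 9.05 on the A-FABP arrays against 9.24 and 9.32 on the controls. Of these markers 2 were lower at an unadjusted p under 0.05, against 8.24% of all genes. Their part in the Acta2 value was not tested. The cultures were of a carcinoma cell line, and whether they held cells of these types was not tested. In bulk RNA, fewer cells of a type and less RNA per cell cannot be told apart. Acta2 is a target of serum response factor and is also known to be driven through E-boxes, so the 250 bases before its start (RefSeq, GRCm38.p6, chr19:34255374-34255623, minus strand) are shown with CANNTG in capitals.
Acta2: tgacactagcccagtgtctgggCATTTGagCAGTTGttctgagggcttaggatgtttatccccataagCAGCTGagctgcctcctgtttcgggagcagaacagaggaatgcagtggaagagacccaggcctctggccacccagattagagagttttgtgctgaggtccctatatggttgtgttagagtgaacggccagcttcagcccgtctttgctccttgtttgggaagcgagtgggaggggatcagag
The window held 3 matches to CANNTG, beginning 228, 220 and 182 bases before the start. None was CACCTG or CAGGTG, and no exact CArG box, the motif of serum response factor found in 1.47% of promoters, lay in it. The search was for CC, 6 letters of A or T, and GG, exactly. Variants such as ccctatatgg and ccttgtttgg, both in the window, were not counted.

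Genes that act with the EMT factors or answer to them are described by count, and none of those named passed (the lowest limma adjusted p was 0.296). Contractile genes of smooth muscle and myofibroblasts lay below 0 in 15 of 20, with a median of -0.05 (0.018 after median centring, where that of all genes was 0.05). At an unadjusted p under 0.05, 2 were lower and 0 higher, against 8.24% and 4.81% of all genes. Synpo2, an actin-binding protein gene, lay at 5.47 and 5.52 with A-FABP and at 5.92 and 5.97 with PBS (-0.45 ± 0.08 SE). Myocd, which encodes the co-activator myocardin, lay at -0.34 ± 0.11, the leiomodin gene Lmod1 at -0.27 ± 0.11 and the myosin light chain kinase gene Mylk at -0.21 ± 0.10. Lmod1 lay at -0.18 without PBS control replicate 1 and Mylk at -0.13 without A-FABP replicate 1. These 4 genes had mean levels of 5.72 to 6.29, and the median difference of all genes was -0.15 at levels of 5 to 6 and -0.10 at 6 to 7.

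Epithelial genes that EMT factors repress lay below 0 in 15 of 24, with a median of -0.06, or -0.12 without A-FABP replicate 1. After median centring it was 0.009, against 0.05 for all genes. At an unadjusted p under 0.05, 1 was higher and 0 lower, against 4.81% and 8.24% of all genes. Ocln, which encodes the tight junction protein occludin, was the higher gene, at 7.71 and 7.55 with A-FABP and at 7.34 and 7.26 with PBS (0.33 ± 0.10 SE). The claudin genes Cldn7 (-0.42 ± 0.18) and Cldn1 (-0.22 ± 0.10) and the polarity gene Crb3 (-0.25 ± 0.11) lay on the lower side. Leaving out PBS control replicate 1 gave -0.19 for Cldn7 and leaving out replicate 2 gave -0.65, and Crb3 lay at -0.15 without PBS control replicate 2. Cdh1, which encodes E-cadherin, the classic target of Snail and Zeb factors, lay at 6.24 and 6.20 with A-FABP and at 6.39 and 6.32 with PBS, a difference of -0.14 ± 0.08. Its other probe set, dimmer, gave 0.0009.

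Promoters were in the table for 16 of these 24 epithelial genes, and Cdh1 was not among the 16. Within 250 bases before a start, 10 of the 16 held CACCTG or CAGGTG, against 19.4% of 27025 genes with a promoter. Grhl1, Ovol2, Cldn1, Cldn3, Dsp and Jup held neither. The list was made of genes known to be repressed by EMT factors, and the difference in share was not tested. Epcam (RefSeq, GRCm38.p6, chr17:87635729-87635978, plus strand) and Crb3 (chr17:57061951-57062200, plus strand) are shown as examples with several matches, with CACCTG and CAGGTG in capitals.
Epcam: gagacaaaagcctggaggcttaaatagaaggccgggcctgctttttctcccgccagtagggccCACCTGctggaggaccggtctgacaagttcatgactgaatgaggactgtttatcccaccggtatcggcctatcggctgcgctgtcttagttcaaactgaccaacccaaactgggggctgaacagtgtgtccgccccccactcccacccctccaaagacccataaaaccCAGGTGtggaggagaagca
Crb3: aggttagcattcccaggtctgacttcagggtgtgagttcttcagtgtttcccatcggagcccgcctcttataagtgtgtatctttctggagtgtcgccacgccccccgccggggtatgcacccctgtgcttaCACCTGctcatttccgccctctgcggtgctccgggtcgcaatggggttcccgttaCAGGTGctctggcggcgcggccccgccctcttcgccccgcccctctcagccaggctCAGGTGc
In Epcam, a cell adhesion gene, matches began 187 and 19 bases before the start, and in Crb3 118, 63 and 7 bases before it. The arrays do not measure binding at these sequences.

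Mesenchymal matrix and adhesion genes lay above 0 in 13 of 21, with a median of 0.01 that became -0.03 after repeated quantile normalization. At an unadjusted p under 0.05, 2 were lower and 0 higher, against 8.24% and 4.81% of all genes. Cdh11, which encodes a cadherin of mesenchymal cells, lay at 5.71 and 5.55 with A-FABP and at 6.07 and 6.06 with PBS (-0.44 ± 0.09 SE). The collagen gene Col1a2 lay at -0.26 ± 0.08, with 0.17 at its other probe set, and its partner Col1a1 at 0.20 ± 0.08. Tgfbi, a matrix protein gene induced by TGF-beta, lay at -0.18 ± 0.08.

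Other transcription factors linked to EMT lay above 0 in 9 of 19, with a median of -0.01. It was 0.06 without A-FABP replicate 1 and also after median centring, against 0.05 for all genes under centring. At an unadjusted p under 0.05, 1 was higher and 3 lower, against 4.81% and 8.24% of all genes. Klf8, a Krüppel-like repressor, was the higher gene at 0.39 ± 0.12 (SE). The lower ones were the homeobox gene Msx2 (-0.42 ± 0.08), the neural crest factor Sox10 (-0.43 ± 0.14) and the forkhead gene Foxq1 (-0.27 ± 0.09, and -0.27 at its other probe set). Co-repressors and regulators of Snail protein stability lay above 0 in 16 of 20, with a median of 0.06 (0.02 after cyclic loess and 0.13 after median centring). None of these had an unadjusted p under 0.05 in either direction, against 13% of all genes. All but Usp27x and Gsk3b lay at levels of 7 to 11, where the median difference of all genes was 0.09 (7 to 9) and 0.05 (9 to 11). Among them were Fbxw7 and Fbxo11, subunits of ubiquitin ligases (0.19 ± 0.08 and 0.15 ± 0.08), the LIM protein gene Limd1 (0.19 ± 0.10, and 0.12 without PBS control replicate 2) and Suz12, a Polycomb subunit (0.17 ± 0.08).

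**Figure D4:**
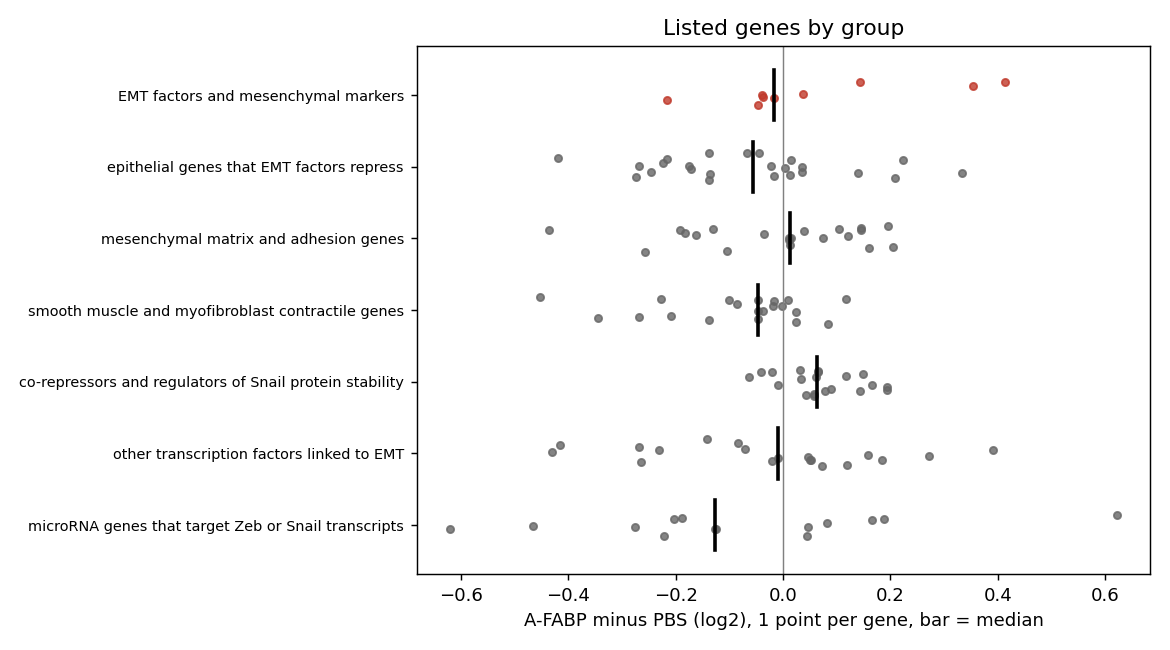
Difference between A-FABP and PBS (log2) of each measured gene in the group described here (red) and in 6 lists of related genes (grey), with medians as black bars. The medians run from -0.13 for microRNA genes to 0.06 for regulators of Snail, and points of every list lie on both sides of 0.

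The miR-200 microRNAs restrain Zeb1 and Zeb2. The mature 3p arms of 4 of them are shown because they fall into a pair of seed groups that recognise different target sites. The sequences are from RefSeq (GRCm38.p6), 5′ to 3′, with the seed, bases 2 to 8, in capitals.
mmu-miR-200b-3p: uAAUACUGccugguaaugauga
mmu-miR-200c-3p: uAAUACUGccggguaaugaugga
mmu-miR-200a-3p: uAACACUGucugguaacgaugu
mmu-miR-141-3p: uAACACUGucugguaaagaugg
The top pair shares the seed AAUACUG and the lower pair AACACUG. Mir429, also of the miR-200 family, had only a probe set annotated to several genes and is given no value. In all 4 of the genes shown, both A-FABP values were under both control values, as for 27.5% of all genes. Of the 4, 0 had an unadjusted p under 0.05. Mir200c lay at 3.998 and 4.66 with A-FABP and at 4.74 and 5.16 with PBS (-0.62 ± 0.29 SE), with gaps between replicates of 0.67 and 0.43. Its difference was -0.95 without A-FABP replicate 2, -0.29 without A-FABP replicate 1 and -0.41 without PBS control replicate 2. Mir200b lay at -0.22, Mir200a at -0.20 (-0.12 without A-FABP replicate 2) and Mir141 at -0.19. All 4 lay below the array medians. Over all genes the median difference was -0.11 at levels of 4 to 5, where Mir200c lies, -0.15 at 5 to 6, where Mir200a and Mir200b lie, and -0.002 below 4, where Mir141 lies. Whether a probe set reads the precursor or the mature form was not known here. Over the 14 measured microRNA genes that target Zeb or Snail transcripts the median was -0.13, with 8 below 0, and it was -0.05 with the trend on mean level removed (Mir30d alone of the 14 lay above the median level of all probe sets). Mir30c-1 lay at 5.62 and 5.41 with A-FABP and at 5.14 and 4.64 with PBS, a difference of 0.62 ± 0.21 (SE). It was the only higher gene at an unadjusted p under 0.05, with 0 lower, against 4.81% and 8.24% of all genes. Without PBS control replicate 2 the Mir30c-1 difference was 0.37. Mir203, a microRNA of epidermal differentiation, lay at -0.28 ± 0.12, and at -0.15 without PBS control replicate 1.

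**Figure D5:**
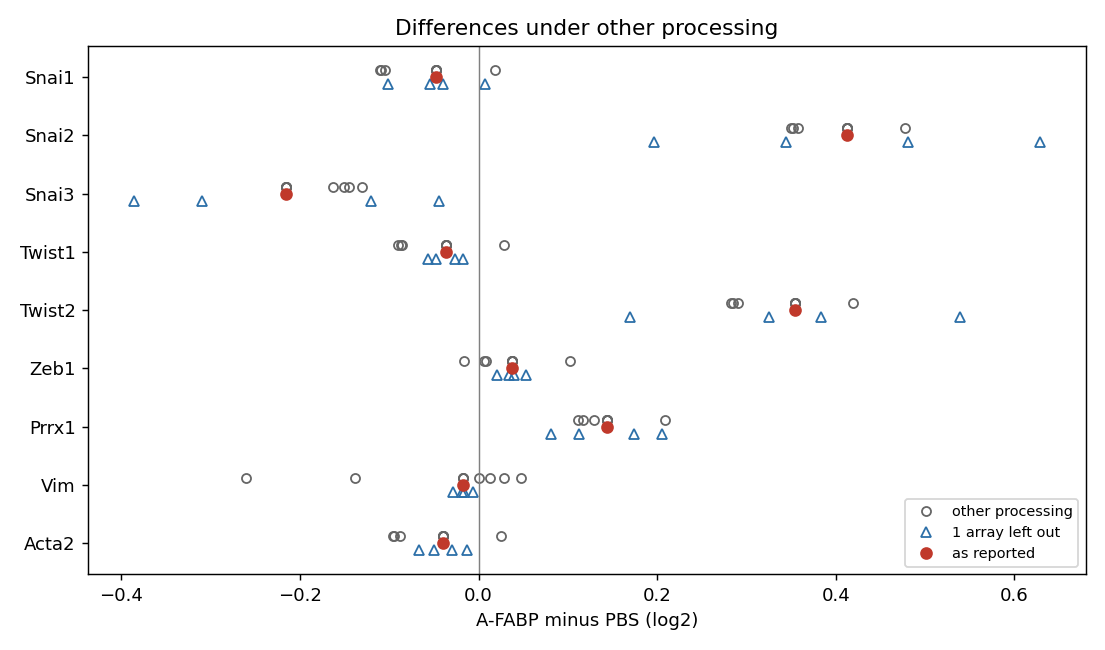
Difference between A-FABP and PBS (log2) of the 9 genes as reported (filled circles), under other processing (open circles) and with 1 array left out (triangles). Snai2, Twist2 and Prrx1 lie above 0 and Snai3 below 0 throughout, while Snai1, Twist1, Zeb1, Vim and Acta2 lie on both sides of 0 under at least 1 setting.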

How the data were processed

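RNA of 4 EO771 samples was biotin-labelled and hybridised to 1-colour arrays. The deposited table holds log2 expression values, and the submitters' processing notes name RMA (background correction, normalization between arrays and summary of probes) and Partek 6.6. Such values understate differences at both ends of the scale. The number of arrays limits the precision. Genome build: not given in the sources used here.

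Platform annotation named 1 gene for 23521 of 41345 probe sets, several for 1814 and none for 16010. Probe sets with several genes name none. Differences (A-FABP minus PBS) were fitted with limma 3.58.1 (lmFit and eBayes, two-sided; R 4.3.3) on the full table, with Benjamini-Hochberg adjustment and a threshold of 0.05, and the fit was tested on simulated data. Residual degrees of freedom were 2, with 1.91 from the prior. Nothing says that cultures were grown separately beyond the titles' words, so p-values measure the spread between these samples.

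The genes and lists were chosen with earlier results of these data known. All 10 genes are named, with up to 4 genes of each of 6 lists by lowest unadjusted p. Others are named as markers, microRNA family members or by likeness to the gene with the lowest p. Of the listed symbols, Mkl1 and Mkl2 were matched to Mrtfa and Mrtfb through RefSeq synonyms, and symbols with no single-gene probe set were not used here. Motifs were searched as exact letters on both strands in RefSeq promoters. Alternatives covered scaling, the trend on mean level, a level filter, the variance prior, a replicate block, the probe set rule and leaving out each array.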

Additional observations from a re-analysis of the deposited data

How the results depend on the processing

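Under 11 alternatives 0 probe sets passed the adjusted threshold, with lowest adjusted p-values of 0.156 to 0.579. Snai2, Twist2, Prrx1 and Snai3 kept their sign in all 13 alternatives tried for them. With trend and robust variance settings 3 genes of the group (Snai2, Twist2 and Prrx1) were higher at an unadjusted p under 0.05, and leaving out 1 array gave 0 to 2. With the replicate number as a block 1 was higher (Snai2). Of all 41345 probe sets, 6876 had an unadjusted p under 0.05 with trend and robust settings and 5464 with the block. Same-numbered arrays showed no shared deviation: their deviations correlated at -0.009 over 41345 probe sets with 2 pairs. Whether same-numbered samples were handled together was not stated. With the other Vim probe set, an alternative chosen after seeing the data, 1 gene was lower. Median centring adds the same amount to every gene (the median of all genes went from -0.01 to 0.05), which by itself turned the signs of Acta2 (0.025), Snai1 (0.018), Twist1 (0.028) and Vim (0.048). Vim also lay at 0.028 after cyclic loess, 0.013 with the trend removed and 0 after repeated quantile normalization, where Zeb1 lay at -0.016. Snai1 ranged from -0.10 to 0.0073 with 1 array left out. The cause of these other turns was not tested. The median of the 9 genes ranged from -0.04 to 0.05. For the lists, 13 medians moved by more than the spread between replicates, and none of the 24 list genes with the lowest p turned sign under the alternatives run for them, which did not include a gene's other probe set taken alone. With 1 array left out its group has a lone array, assumed to vary like the other group.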

Other observations

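Genes of the lists with more than 1 probe set did not always give the same direction or size of difference. Etv5, an ETS factor, lay at 0.27 at its brighter probe set and at -0.12 at the other. The collagen gene Col5a1 lay at 0.01 and -0.46, and Sox4, a factor upstream of EMT genes, at -0.26 and -0.43. The smooth muscle gene Smtn lay at -0.02 and -0.27, so Smtn and Sox4 were below 0 at both probe sets. Among microRNA genes aimed at Snail transcripts, Mir34a lay at 0.05, Mir34b at -0.13 and Mir34c at 0.05. Mir30a lay at -0.47, where PBS replicate 2 (4.40) stood apart from the other 3 arrays (3.47 to 3.51). None of these values passed the adjusted threshold.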
